A study of Homo sapiens with 6 samples.

Results

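The 6 genes described here, SPINK4, FBLN2, GALNT16, AGRN, HEPACAM2 and RNASE1, are found among the 17066 gene symbols of the series, and each has 1 row in every one of the 3 deposited comparisons. The members were chosen by their measured values: SPINK4, FBLN2, GALNT16 and AGRN were selected on a low level in CEBPA against CTR, and HEPACAM2 and RNASE1 on a low level in P30 against CTR. The series holds RNA-seq of 6 samples of K562, a human leukemia line in wide laboratory use that shows erythroid traits, as 2 biological replicates of each of 3 stable lines. The CTR line carries an empty vector, the CEBPA line a Tet-inducible transgene for wild-type C/EBPα, and the P30 line the same kind of transgene for the p30 isoform, all delivered with a PiggyBac transposon. All samples, CTR included, had received 200 ng/ml doxycycline for 48 h, and no sample without the drug was among them. The lines were made separately, so that a difference between lines and an effect of the transgene cannot be told apart.

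C/EBPα is a transcription factor that drives granulocyte development, and its mRNA also gives, from a later start codon, the p30 protein, which still binds DNA but has lost part of the activation domain at its N-terminus. Most of the encoded proteins act outside the cell or at membranes that face it. SPINK4 is a secreted serine protease inhibitor with a Kazal domain, known from goblet cells of the gut. FBLN2 (fibulin-2) is a secreted glycoprotein of the extracellular matrix, and AGRN (agrin) is a heparan sulfate proteoglycan of basement membranes, known for clustering acetylcholine receptors at the nerve-muscle synapse. RNASE1 is a secreted ribonuclease that degrades extracellular RNA, and HEPACAM2 is a transmembrane protein of the immunoglobulin superfamily. GALNT16 is an enzyme held in the Golgi membrane, and belongs to the family that attaches the first sugar (GalNAc) of mucin-type O-glycans to secreted and surface proteins.

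The deposited value is FPKM, a fragment count scaled for transcript length and library size, with both replicates of a line pooled into 1 value by the authors. The paper gives a range of sequenced read pairs for the samples and a correlation between replicates. Neither gives the depth or the spread between replicates behind a single value. The comparisons here therefore describe single pooled values with no error or test. Changes are given as differences of log2(FPKM + 1), which makes those of weakly expressed genes look smaller. Apart from those of neighbouring genes, they were taken where either line of a pair exceeded 1 FPKM. A gene was called lower or higher when it differed at least 2-fold on this scale. A gene at or below 1 FPKM in one line was compared only if the other line exceeded 1 FPKM. The filter thus fixed the direction of such a gene. The erythroid markers GATA1, KLF1, HBG1, TFRC and EPOR, which fit the K562 label, exceeded 1 FPKM in every line. Of the granulocyte markers, 4 of 6 had a row (S100A8, S100A9, CSF3R and CEBPE). Their levels summed to 8424 FPKM in CEBPA and 27.7 in P30, where CTR had 4.44. S100A8 and S100A9 made up most of both sums, at 3731 and 4623 FPKM in CEBPA and 9.54 and 11.1 in P30. All 4 markers were called higher in CEBPA vs CTR, where 14.0% of all genes compared were. In P30 vs CTR 3 were called higher, where 1.02% of all genes compared were, but CSF3R stayed near its CTR level (log2 difference -0.04). S100A8, S100A9 and CEBPE were below 1 FPKM in CTR, so that the filter fixed their direction. In such bulk RNA, fewer cells of a type and less RNA per cell cannot be told apart.

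For the genes whose start sites are described by RefSeq, the 250 bases before each start were searched for 3 short motifs on both strands: TTNNGCAA, a loose form of the C/EBP site, CCAAT, and AGATAA, a form of the GATA site. These windows, taken from RefSeq on GRCh38.p14, were placed on GRCh37, the build the authors aligned to, where each matched exactly 1 position. There were 8 windows for 5 of the genes (FBLN2, HEPACAM2 and RNASE1 have 2 each), and AGRN was not among them. Of the 8 windows, 1 held TTNNGCAA, 3 held CCAAT and 2 held AGATAA, where the shares over all 35116 windows of the same length were 9.05%, 32.0% and 9.17%. The windows of SPINK4 and of the inner start of HEPACAM2 are shown, since they are the ones that hold the GATA-type motif. Capitals mark the motif matches. The SPINK4 window lies on the plus strand at chr9:33239915-33240164 and the HEPACAM2 window on the minus strand at chr7:92848885-92849134, both written 5′ to 3′, and both starts fall inside the spans that Gencode gives these genes.
SPINK4: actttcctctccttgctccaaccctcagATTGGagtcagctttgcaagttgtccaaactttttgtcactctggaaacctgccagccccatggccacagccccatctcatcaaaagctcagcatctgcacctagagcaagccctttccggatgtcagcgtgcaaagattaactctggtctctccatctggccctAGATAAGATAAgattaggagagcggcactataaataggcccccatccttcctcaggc
HEPACAM2: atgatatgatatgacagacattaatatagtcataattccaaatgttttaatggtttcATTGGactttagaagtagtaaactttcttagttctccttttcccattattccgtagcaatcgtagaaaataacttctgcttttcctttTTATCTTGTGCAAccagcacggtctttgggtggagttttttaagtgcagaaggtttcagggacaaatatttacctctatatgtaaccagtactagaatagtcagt
In SPINK4 a pair of AGATAA matches, which share 1 base, start 57 and 52 bases before the start site, and a reversed CCAAT match starts 222 bases before it. In HEPACAM2 the reversed AGATAA match starts 105 bases before the start site and shares its last base with the TTNNGCAA match, which starts 100 bases before it. Reversed CCAAT matches start 193 bases before this site in HEPACAM2 and 221 bases before the inner start in RNASE1. The windows of FBLN2 and GALNT16 held none of these letters and were rich in G and C, with 80.4% and 66.0% for FBLN2 and 74.8% for GALNT16, where the median of all windows was 58.0%. The HEPACAM2 window shown had 33.6%. A match is a run of letters only, and binding was not measured here.

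The levels of the 6 genes had the same order in every case: highest in CTR, lower in P30 and lowest in CEBPA. Part of this order is set by the choice of the genes. CTR above CEBPA was fixed for SPINK4, FBLN2, GALNT16 and AGRN, and CTR above P30 for HEPACAM2 and RNASE1. The choice on low CEBPA values also favours CEBPA below P30 in the former genes. SPINK4 had 46.0 FPKM in CTR against 17.7 in P30 and 3.28 in CEBPA. It was the most abundant of the 6 per transcript length in CTR, where its level was above that of 85.6% of 17023 genes measured in every line, and in CEBPA it exceeded that of only 38.3%. FBLN2 had 14.9 FPKM in CTR against 3.69 in P30 and 0.679 in CEBPA, and was thus the only member below 1 FPKM in any line. Its CEBPA level was 4.54% of its CTR level, the lowest such share of the 6 genes, and its P30 level was 24.7%. AGRN had 39.0 FPKM in CTR against 27.7 in P30 and 9.36 in CEBPA, and was the most abundant of the 6 in both isoform lines, though not in CTR. GALNT16 had 16.6 FPKM in CTR against 12.8 in P30 and 1.11 in CEBPA, so that P30 was close to CTR and far from CEBPA. HEPACAM2 showed the other arrangement, with 20.0 FPKM in CTR against 3.22 in P30 and 1.87 in CEBPA. RNASE1 was similar, with 32.4 FPKM in CTR against 6.58 in P30 and 4.94 in CEBPA.

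**Figure D1:**
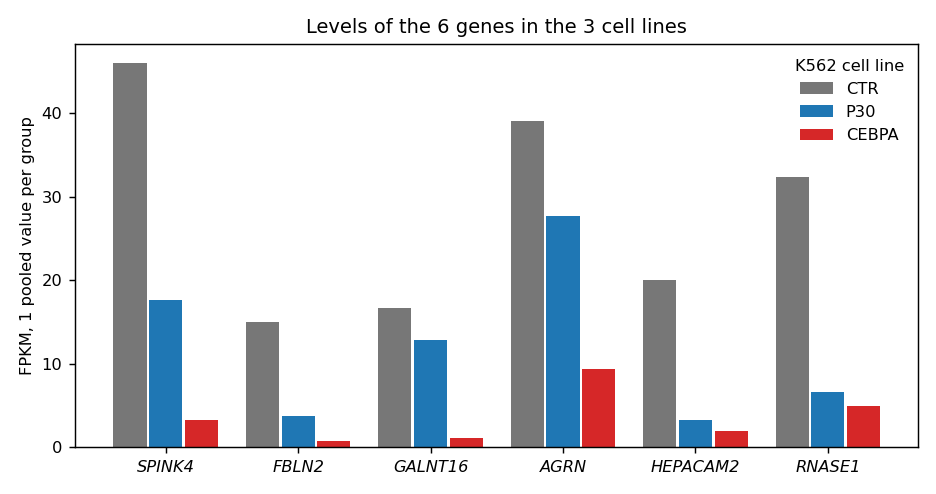
Level of each gene in FPKM (y axis, from 0) in the CTR, P30 and CEBPA lines, with 1 bar per line, which is the pooled value of 2 replicates and has no error bar. In all 6 genes the CTR bar is the tallest and the CEBPA bar the shortest, and the P30 bar stands near CTR for GALNT16 (12.8 against 16.6 FPKM) and near CEBPA for RNASE1 (6.58 against 4.94 FPKM). Part of this order is set by the choice of the genes.

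CEBPA was compared with CTR first. All 6 genes were called lower, where 6.92% of the 13673 genes compared were (946 genes). For the 4 genes chosen on this contrast the count is fixed by the choice and nothing is read from it. FBLN2, below 1 FPKM in CEBPA, also passed the filter only through CTR. The log2 difference was -3.46 for SPINK4, -3.25 for FBLN2, -3.06 for GALNT16 and -1.95 for AGRN. Counted from the lowest difference of all genes, SPINK4 stood at place 7, FBLN2 at 8, GALNT16 at 10 and AGRN at 107, so that AGRN, although chosen with the others, stood well apart from them. The 2 genes chosen on P30 against CTR were at -2.87 (HEPACAM2, place 15) and -2.49 (RNASE1, place 39). These lie below AGRN, although the rule did not use their CEBPA values. The same CTR libraries enter both contrasts. As plain ratios of FPKM, CTR exceeded CEBPA by 14.0 times for SPINK4, 22.0 for FBLN2, 14.9 for GALNT16, 4.17 for AGRN, 10.7 for HEPACAM2 and 6.56 for RNASE1. The median difference was -2.68 for the 2 genes not chosen on this contrast and -3.15 for the 4 that were, a value set by the choice, and it was -0.01 over all genes compared.

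In P30 vs CTR, which asks what the short isoform does in the absence of the full-length protein, 4 of the 6 genes were called lower, where 0.613% of the 12395 genes compared were (76 genes, or 184 with a pseudocount of 0.1). For HEPACAM2 and RNASE1 this is fixed by the choice. HEPACAM2 at -2.32 and RNASE1 at -2.14 were chosen on this contrast, and stood at places 6 and 7 from the lowest. FBLN2 at -1.77 (place 9) and SPINK4 at -1.33 (place 31) were chosen for CEBPA only and were lower in P30 as well. The CTR value used to choose them is also the reference here, so that their falls are not independent of the choice. GALNT16 at -0.35 and AGRN at -0.48 were not called. The whole distribution of changes is narrow in this contrast, with a spread of 0.20 (the scaled median absolute deviation) beside 0.73 in CEBPA vs CTR, and both genes still lay in its lower part, at places 891 and 497. The P30 level was 77.1% of CTR for GALNT16 and 70.9% for AGRN, but 38.4% for SPINK4, 24.7% for FBLN2, 20.3% for RNASE1 and 16.1% for HEPACAM2. The paper tested differences between the lines with Cuffdiff on the replicates, and its lists of significant genes were not used here. The pooled values give no replicate spread to say whether the small differences of GALNT16 and AGRN exceed error.

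**Figure D2:**
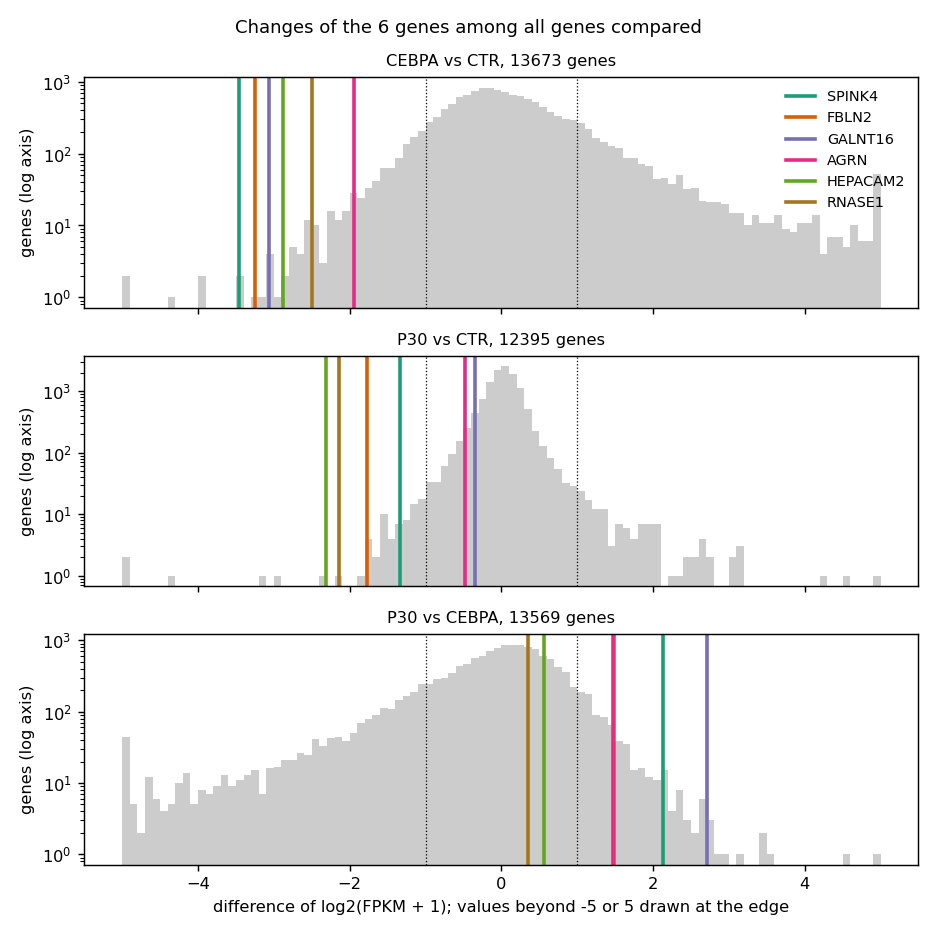
Number of genes (y axis, log scale) by difference of log2(FPKM + 1) (x axis) in 3 panels, one for each pair of lines, with coloured lines at the 6 genes, dotted lines at a 2-fold difference, and values beyond 5 in either direction drawn at the edges. All 6 lines lie left of the lower limit in CEBPA vs CTR, 4 do so in P30 vs CTR, and in P30 vs CEBPA the line of AGRN (1.47) covers that of FBLN2 (1.48).

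The isoform lines were then set against each other directly. The paper's western blot legend names both the full-length protein and p30 for the CEBPA line. The comparison is thus not of p30 with the full-length protein alone. In P30 vs CEBPA all 6 genes had positive differences, and 4 were called higher in P30, where 5.79% of the 13569 genes compared were (785 genes). These 4 are the genes chosen for low CEBPA values, and the other 2 were chosen for low P30 values, so that the choice shapes this count and nothing is read from it. FBLN2, at 0.679 FPKM in CEBPA, passed the filter only through P30, so that its direction was fixed. GALNT16 had the widest gap, with a log2 difference of 2.71 and a ratio of P30 to CEBPA of 11.5, which put it at place 11 from the highest. SPINK4 followed with 2.13 (ratio 5.39, place 44 from the highest), and FBLN2 with 1.48 (ratio 5.43, place 190) and AGRN with 1.47 (ratio 2.96, place 200) were nearly equal on the log2 scale. HEPACAM2 at 0.56 (ratio 1.72) and RNASE1 at 0.35 (ratio 1.33) were not called. Expressed as a share of the log2 difference seen in CEBPA, the difference in P30 was 11.5% for GALNT16, 24.7% for AGRN, 38.5% for SPINK4, 54.4% for FBLN2, 80.6% for HEPACAM2 and 85.9% for RNASE1. Part of this order is set by the rule, since the genes at the upper end were chosen for low P30 values and those at the lower end for low CEBPA values. The 4 genes chosen on the same contrast ranged from 11.5% to 54.4%. The upper value, that of FBLN2, depends on the pseudocount. With a pseudocount of 0.1 its differences against CTR were -4.27 in CEBPA and -1.99 in P30.

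The families of the members were described next, without the members themselves. The GalNAc-transferases start O-glycosylation in the Golgi, and 10 of 19 other family genes could be compared in CEBPA vs CTR. GALNT12 (38.5 FPKM in CTR, 17.9 in CEBPA, log2 difference -1.07) was the only one called lower. GALNT3 (0.0441 and 2.31 FPKM) was the only one called higher, where 14.0% of all genes were called higher. GALNT3 passed the filter only through CEBPA, so that its direction was fixed. The median of the 10 was -0.32. GALNT2, the most abundant family member, had 65.1 FPKM in CTR against 48.7 in P30 and 34.0 in CEBPA, and GALNT1, with 28.8, 33.4 and 30.6 FPKM, differed little. In P30 vs CTR none of the 10 compared was called lower, beside 0.613% of all genes. In that contrast 1 was called higher (GALNT14, 0.136 and 2.64 FPKM, beside 1.02% of all genes), and the median was 0.15. GALNT14 passed the filter only through P30, so that its direction was fixed. Of the enzymes that extend and cap the O-glycan, 3 of 6 compared were called lower in CEBPA, beside the 6.92% of all genes. These were ST6GALNAC1, with 55.8 FPKM in CTR and 10.4 in CEBPA (log2 difference -2.32), ST6GALNAC4, with 18.6 and 5.68, and ST3GAL2, with 43.8 and 19.3, which add sialic acid. ST3GAL1, another sialyltransferase, had 1.93 FPKM in CTR and 1.55 in CEBPA and was not called. The median of the 6 was -0.70. C1GALT1, which forms the core 1 structure, and its chaperone C1GALT1C1 stood at -0.27 and 0.11. In P30 vs CTR none of the 6 was called, where 0.613% of all genes were lower and 1.02% higher, and their median was -0.17.

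Among 23 other basement membrane genes, 12 could be compared in CEBPA vs CTR, 4 were called lower and 3 higher, with a median of -0.22 (0.18 when genes of any level are included), where the shares over all genes were 6.92% lower and 14.0% higher. Those called lower were COL18A1 (48.8 FPKM in CTR, 9.80 in CEBPA, log2 difference -2.21), LAMB2 (22.6 and 5.29, -1.91), LAMA5 (23.5 and 7.67, -1.50) and HSPG2 (22.3 and 10.3, -1.04), which encode the collagen XVIII chain, laminin chains and perlecan. Other laminin chains were higher in CEBPA: LAMA2 had 0.214 FPKM in CTR and 5.72 in CEBPA, LAMC1 1.90 and 6.40, and LAMA1 0.0424 and 1.81. LAMA2 and LAMA1 passed the filter only through CEBPA, so that they could enter only as higher. LAMC1 exceeded 1 FPKM in both lines. In P30 vs CTR none of 10 compared was called, where 0.613% of all genes were lower and 1.02% higher. The lowest were COL18A1 at -0.81 (27.4 FPKM in P30) and LAMB1 at -0.79. Of the agrin receptors and partners, 3 of 7 could be compared. ITGAV, an integrin chain, was higher in CEBPA (12.1 FPKM in CTR, 41.4 in CEBPA), whereas DAG1 (dystroglycan, 11.4 and 6.59) and ITGB1 (103 and 59.4) were not called, and LRP4, the agrin receptor of muscle, stayed at or below 0.655 FPKM in all lines.

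Of 6 other fibulins 2 could be compared in CEBPA vs CTR, and neither was called lower, beside 6.92% of all genes. EFEMP2 (fibulin-4) had 8.60 FPKM in CTR against 6.87 in P30 and 5.40 in CEBPA and was not called. HMCN1 (hemicentin-1) was called higher in CEBPA, with 0.732 FPKM in CTR and 5.93 in CEBPA. HMCN1 passed the filter only through CEBPA, so that its direction was fixed. In the RNase A family, RNASE1 was called lower in CEBPA vs CTR. RNASE2, the eosinophil-derived neurotoxin, was at 12.5 FPKM in CEBPA and listed at 0 in CTR. RNASE3, the eosinophil cationic protein, had 1.77 FPKM in CEBPA and 0.0257 in CTR. RNASE2 and RNASE3 passed the filter only through CEBPA, so that they could enter only as higher. RNASE6 had 1.35 FPKM in CTR against 1.02 in P30 and 3.33 in CEBPA. In P30, RNASE2 and RNASE3 were at 0.0413 and 0.0234 FPKM, so that neither approached its CEBPA level there. RNH1, the inhibitor of these ribonucleases, had 71.9 FPKM in CTR against 69.2 in P30 and 48.6 in CEBPA. Of the other Kazal inhibitors only SPINK2 exceeded 1 FPKM, with 1.17 in CEBPA and 0.136 in CTR. Among 9 genes related to HEPACAM2 in the immunoglobulin superfamily, 4 could be compared in CEBPA vs CTR and none was called. The shares over all genes there were 6.92% lower and 14.0% higher. In P30 vs CTR none of the other genes compared in the fibulin, agrin receptor, RNase A or HEPACAM2-related lists was called. The shares over all genes in that contrast were 0.613% lower and 1.02% higher. No Kazal inhibitor other than SPINK4 could be compared there. F11R, the most abundant of the HEPACAM2-related genes, had 45.5 FPKM in CTR against 57.2 in P30 and 32.4 in CEBPA.

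**Figure D3:**
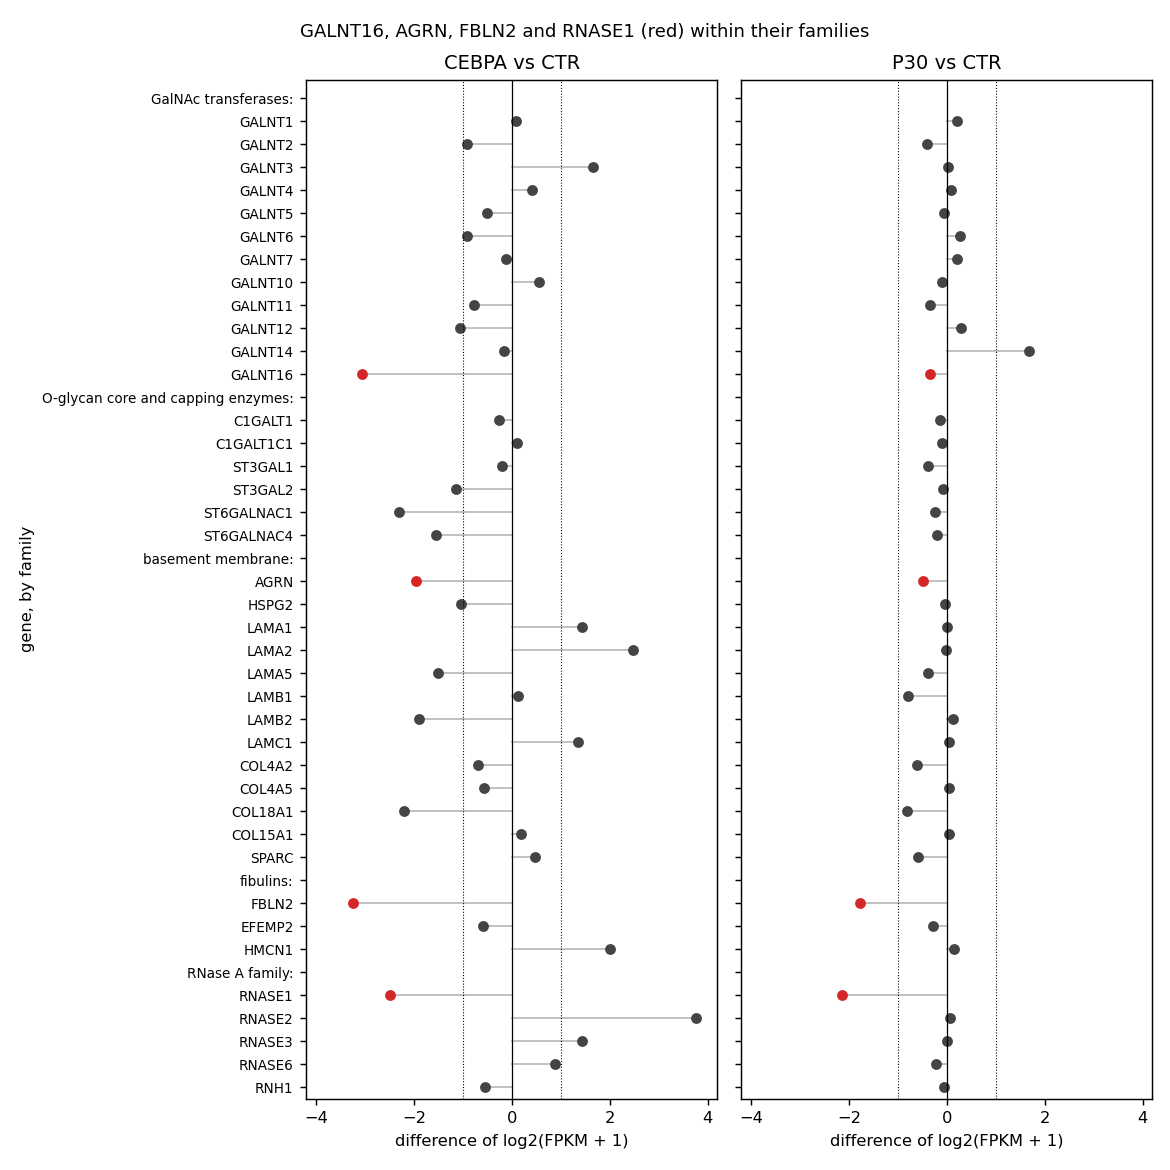
Difference of log2(FPKM + 1) (x axis) for the family genes with over 1 FPKM in at least 1 line (y axis), in CEBPA vs CTR on the left and P30 vs CTR on the right, with GALNT16, AGRN, FBLN2 and RNASE1 in red and dotted lines at a 2-fold difference. GALNT16 (-3.06) and FBLN2 (-3.25), which were chosen on the contrast plotted there, lie far to the left in the left panel, RNASE2 (3.76) lies opposite RNASE1 (-2.49) there, and on the right only FBLN2, RNASE1 and GALNT14 pass a dotted line. RNASE2 and GALNT14 each exceeded 1 FPKM only in the line where they are high.

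The positions of the genes, which the rule did not use, were taken from a Gencode annotation on GRCh37 that is later than the authors' release. SPINK4 (ENSG00000122711) lies on chromosome 9 from 33218363 to 33248565, FBLN2 (ENSG00000163520) on chromosome 3 from 13590625 to 13679922, and AGRN (ENSG00000188157) on chromosome 1 from 955500 to 991498, all on the plus strand. GALNT16 (ENSG00000100626, plus strand, 69725994 to 69823750) and RNASE1 (ENSG00000129538, minus strand, 21269387 to 21271014) are both on chromosome 14, but far apart. HEPACAM2 (ENSG00000188175) lies on the minus strand of chromosome 7 from 92817847 to 92855782. All are annotated as protein coding.

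The nearest measured coding gene on each side was then compared. In P30 vs CTR none of the 12 neighbours was called, beside 0.613% lower and 1.02% higher over all genes. Nothing is read from this count. The filter was not applied to the neighbours, and SAMD9L and RNASE3 were below 1 FPKM in both CTR and P30. The shares over all genes do rest on the filter. The differences of the neighbours ranged from -0.22 to 0.13. In CEBPA vs CTR 1 of 12 was called lower and 2 higher, counts near the 6.92% and 14.0% of all genes, and the median of the 12 was 0.27. The 2 called higher, SAMD9L and RNASE3, exceeded 1 FPKM only in CEBPA, so that neither could have been called lower. The gene called lower was BAG1, with 49.1 FPKM in CTR and 22.8 in CEBPA (log2 difference -1.08). Its annotated span overlaps the end of SPINK4 by 748 bp on the opposite strand. The libraries were stranded, but whether strand was used to assign reads is not stated in the sources used here. The values of the pair are thus uncertain where reads could be assigned to either. On the other side of SPINK4, B4GALT1, 51009 bp away, was at 0.88. AGRN lay between ISG15 at -0.84 (5580 bp away) and C1orf159 at -0.79 (25700 bp away), which had negative differences without reaching the 2-fold limit. In P30 vs CTR these neighbours were at 0.09 and 0.13, where AGRN was at -0.48. HEPACAM2 lay between SAMD9L, 40149 bp away and higher in CEBPA (0.401 FPKM in CTR, 4.68 in CEBPA), and CCDC132, which differed by 0.06. CCDC132 begins 5871 bp from the Gencode span of HEPACAM2. The outer RefSeq start of HEPACAM2 lies beyond that span, with its window at 92861512 to 92861761. RNASE1 lay between RNASE6 at 0.88 (18761 bp away) and RNASE3 at 1.43 (88530 bp away). GALNT16 was flanked by EXD2 at 0.54 (15257 bp away) and ERH at 0.49 (23095 bp away). FBLN2 was flanked by HDAC11 at -0.11 (42701 bp away) and CHCHD4 at -0.29, which is 473655 bp away.

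**Figure D4:**
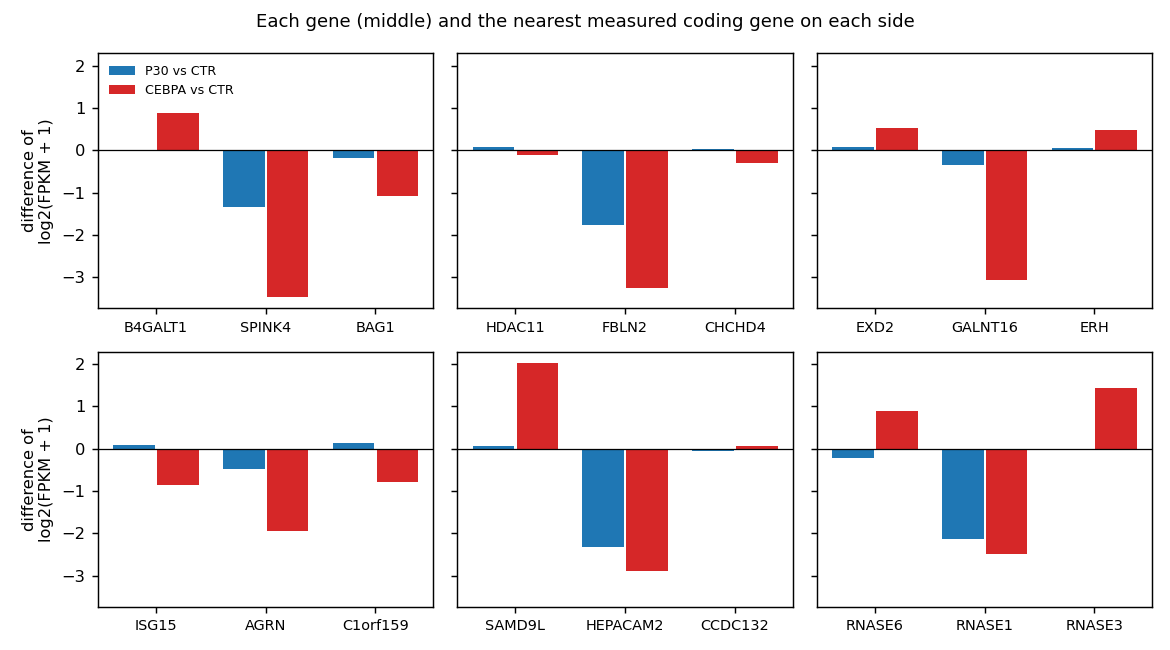
Difference of log2(FPKM + 1) against CTR (y axis) in P30 and CEBPA for each of the 6 genes (middle of each panel) and its nearest measured coding neighbours, with bars from 0 that carry no error. The P30 bars of all 12 neighbours lie between -0.22 and 0.13 and the CEBPA bars of the neighbours between -1.08 and 2.02. The low CEBPA bars of SPINK4, FBLN2, GALNT16 and AGRN and the low P30 bars of HEPACAM2 and RNASE1 are those on which these genes were chosen.

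Finally, the genes most like each member were sought among 8172 protein coding genes with over 5 FPKM in CTR, as the 3 with the smallest Euclidean distance in the pair of log2 differences CEBPA vs CTR and P30 vs CTR. This pair rests on only 3 pooled groups, and it includes the differences on which the members were chosen, so that genes chosen on the same contrast lie near each other and genes with such low values have few others around them. GALNT16 had a near twin in BCAM, the laminin receptor that carries the Lutheran blood group, at a distance of 0.02: BCAM had 18.6 FPKM in CTR against 14.4 in P30 and 1.39 in CEBPA. PTGS1 (cyclooxygenase-1) at 0.14 and SLC6A9, a glycine transporter, at 0.17 came next. The genes nearest to AGRN were UROD, an enzyme of heme synthesis with 684 FPKM in CTR against 479 in P30 and 180 in CEBPA, and SLFN14 and IFI27L2, all within 0.05. The other 4 members had no such close match, and their nearest genes were at distances from 0.42 to 0.48. HEPACAM2 and RNASE1 were each other's nearest gene (0.42), and SPINK4 was nearest to FBLN2 (0.48). ALAS2, the erythroid form of the first enzyme of heme synthesis, was among the 3 nearest genes of SPINK4, FBLN2, HEPACAM2 and RNASE1, and had 149 FPKM in CTR against 44.7 in P30 and 20.9 in CEBPA. ICAM2, an adhesion molecule, completed the list of SPINK4 (distance 0.79), and MYO1A, a myosin, that of RNASE1 (distance 0.71).

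Markers of the cell types in which some of these genes are best known were examined beside them. Of 12 markers of goblet and secretory epithelium 5 had a row, and only EPCAM (30.3 FPKM in CTR, 42.9 in P30, 21.8 in CEBPA) and AGR2 (0.247, 0.0687 and 2.31 FPKM) exceeded 1 FPKM in any line. Of 6 endothelial markers only CLDN5 had a row, with at most 0.604 FPKM. Of 6 fibroblast markers 4 had a row, with a summed level of 4.01 FPKM in CTR against 4.90 in P30 and 5.20 in CEBPA. COL1A1, a collagen chain, had 2.40 FPKM in CTR and 1.46 in CEBPA, whereas DCN (decorin) had 0.568 and 2.01. Among the erythroid markers, GATA1, KLF1, EPOR and HBG1 were called lower in CEBPA vs CTR, where 6.92% of all genes compared were, and TFRC was not. Of these genes HBG1 alone was called lower in P30 vs CTR (872 FPKM in CTR and 410 in P30), where 0.613% of all genes compared were. KLF1, an erythroid transcription factor, had 160 FPKM in CTR against 115 in P30 and 42.3 in CEBPA. EPOR, the erythropoietin receptor, had 42.2 FPKM in CTR against 30.8 in P30 and 12.9 in CEBPA, whereas TFRC, the transferrin receptor, had 133, 145 and 134 FPKM. GATA1, a master regulator of this lineage, had 185 FPKM in CTR against 193 in P30 and 53.1 in CEBPA. The part of these erythroid and granulocyte differences in the levels of the 6 genes was not tested.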

How the data were processed

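Stranded RNA-seq of 6 K562 samples was used, with 2 replicates for each line (CTR, CEBPA, P30). The authors mapped paired-end reads on hg19 with TopHat2 (version 2.0 in the submitters' processing notes), assembled them with Cufflinks on Gencode and deposited FPKM estimated with Cuffdiff, in 3 tables of 1 pooled value per gene and line. The normalization setting and the rule that selected the rows are not given in the sources used here. Replicates were sequenced in separate runs, which the pooled values do not resolve. No count, depth or replicate value for single genes could be recovered, so that no test was run here.

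Differences of log2(FPKM + 1) were computed where either line of a pair exceeded 1 FPKM, and symbols that occur once were joined across tables. Neighbouring genes were taken without this filter. The members and gene lists were chosen with earlier results of these data known. The genes named are the members, their families and marker lists, the nearest measured coding gene on each side (older symbols matched through RefSeq synonyms) and the 3 genes nearest in both changes. An item of the erythroid list is not reported here. The alternatives were a pseudocount of 0.1, centring on the median, no filter, a filter at 5 FPKM and summed symbols. Computations were tested on simulated data. Python 3.11.15, numpy 2.4.6, pandas 2.3.3 and matplotlib 3.10.9 were used.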

Additional observations from a re-analysis of the deposited data

How the results depend on the processing

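No paired analysis was possible because both replicates of a line were pooled into 1 deposited value, and for the same reason no replicate could be left out. The limits for a move were set at 0.20 for log2 values (the scaled median absolute deviation of all genes in P30 vs CTR) and at 1.5 times for counts. The 33 results gave 163 values under the alternatives, and 144 of them kept within the limits while 19 did not. Among the members, 11 of 88 recomputed differences moved, all with pseudocount 0.1, and all 88 kept their sign. With pseudocount 0.1 the median of the members came to -3.56 (CEBPA vs CTR) and 1.92 (P30 vs CEBPA), and 184 genes in place of 76 were called lower in P30 vs CTR. With a filter at 5 FPKM, FBLN2 and HEPACAM2 could not be compared between P30 and CEBPA, and the median of the other 4 was 1.80. That filter also moved the median of the O-glycan enzymes in CEBPA vs CTR to -1.14, and that of the basement membrane genes to -0.46 (CEBPA vs CTR) and -0.49 (P30 vs CTR). With no filter the basement membrane median in CEBPA vs CTR was 0.18, of opposite sign to the reported value, since genes near 0 then enter. The number of members called was the same under every alternative except the filter at 5 FPKM, which left 3 of 4 in P30 vs CEBPA. The read count behind each value is unknown. The precision of FBLN2 at 0.679 FPKM and of other values near 1 FPKM therefore cannot be stated.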
